A study of Homo sapiens with 4 samples.

Results

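The phagocyte NADPH oxidase and its homologues were described in THP1 cells through 9 genes: CYBB, CYBA, NCF1, NCF4, RAC2, RAC1, NOX1, NOX4 and NOX5. The members were all probes for measured transcripts, not control spots, whose gene name in the scanner output was one of these symbols. All 9 of the 27193 gene names on the array were found, with 17 probes of 34127, each 60 bases long. THP1 is an established human cell line from monoblastic acute myeloid leukemia that carries the fusion gene MLL-AF9. The cells were transfected once with 30 nM of a synthetic miR-511-5p mimic or of negative control mimic #1 and then kept in low-serum DMEM/Ham's F12 medium, and RNA was harvested on day 2. Each treatment was measured in 2 independent experiments, which gave 4 single-colour arrays, all on 1 slide with 1 scan. All 4 therefore share the cell line, the medium and the transfection, and no untransfected cells were compared.

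The oxidase moves electrons from NADPH across a membrane to oxygen and so makes superoxide, the source of the oxidative burst with which phagocytes kill microbes. Its membrane part, flavocytochrome b558, joins the catalytic subunit gp91phox (CYBB) to p22phox (CYBA). On activation cytosolic subunits, among them p47phox (NCF1) and p40phox (NCF4), move to it together with a Rac GTPase, and loss of CYBB, CYBA, NCF1 or NCF4 is known to cause chronic granulomatous disease. In myeloid cells several of these genes are switched on as the cells mature.

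The comparison asked which transcripts differ after the mimic is given. The mature miRNA that the mimic stands for is shown because every mimic comparison turns on it. It is given as RefSeq holds it on GRCh38.p14, plus strand, with the seed (bases 2 to 8) in capitals.
hsa-miR-511-5p, chr10:17845122-17845142: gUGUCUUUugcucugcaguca

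The arrays were alike in their overall detection. Between 64.8% and 69.3% of probes were well above background on an array, the scanner software's flag for a spot clearly brighter than its surroundings, and none was saturated. Signals were taken as log2 of the processed intensity after quantile normalization, so a value of 1 unit more is a doubling of signal. The number of arrays limits the precision throughout. Of the monocytic marker probes (CD33, CD68, SPI1, CSF1R, MPO, AZU1, ITGAM, CD14 and HOXA9) 10 of 10 were well above background on all 4 arrays. Of the markers of lymphoid, erythroid, epithelial and stromal cells, 5 of 14 probes were, among them CD79A, while 6 were on none, among them EPCAM, KRT19 and COL1A1.

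The genes of the phagocyte complex were all measured, and the homologues from other tissues were at or near background. Of the 17 probes, 11 were well above background on all 4 arrays, and these covered CYBB, CYBA, NCF1, NCF4, RAC2 and RAC1. A further NOX1 probe was above on 3 arrays, and 5 probes (2 for NOX1, 2 for NOX4 and the NOX5 probe) were above on none.

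**Figure D1:**
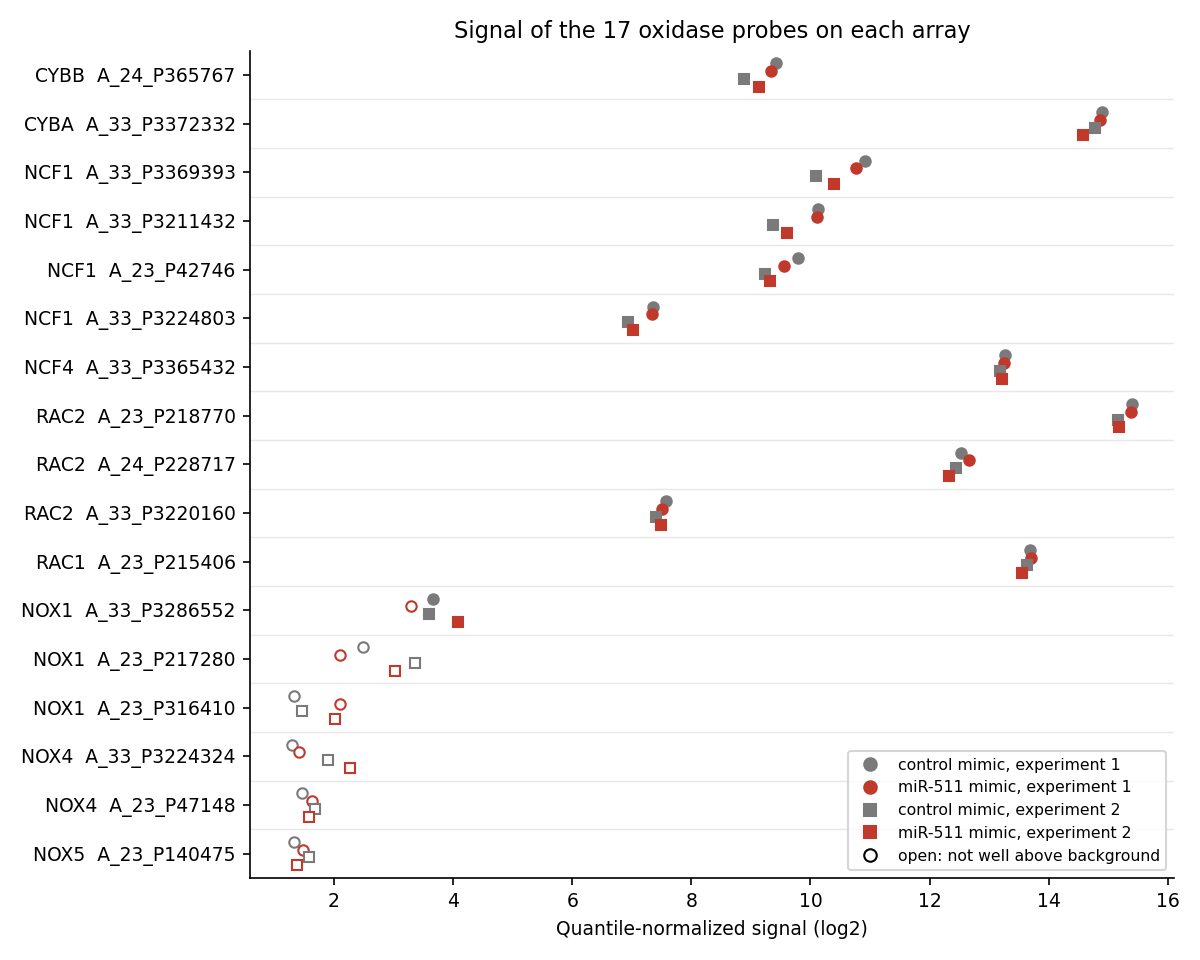
Quantile-normalized log2 signal (x axis) of the 17 oxidase probes (y axis) on each of the 4 arrays, with circles for experiment 1, squares for experiment 2, red for the miR-511 mimic, grey for the control mimic and open symbols where the probe was not well above background. For every probe of CYBB, CYBA, NCF1, NCF4, RAC2 and RAC1 both squares lie to the left of both circles, for some only slightly. Probes differ in sequence, so levels can be compared along a line but not between lines.

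No member passed the test between the mimics. In the limma fit over the 22638 probes that passed the filter on dim probes, 0 of the 12 tested members had an unadjusted p below 0.05, the threshold that the study's methods set, against 2.20% of all tested probes. With the experiment as a block 0 of 12 passed, against 3.95% of all tested probes. After Benjamini-Hochberg adjustment in limma 0% of all tested probes passed, and the adjusted p of each of the 12 members was 1.00. The median log2 fold change (log2FC, miR-511 mimic minus control mimic) was 0.0092 over the 12 members and 0.0098 over all tested probes. The median size, without sign, was 0.044 for the members and 0.079 for all. The largest size among the members was 0.12, for CYBA.

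The pair of experiments gave opposite signs for most members. In experiment 1, 10 of 12 were lower with the miR-511 mimic, and in experiment 2, 3 of 12 were. Lower in experiment 1 and higher in experiment 2 were 9 of 12, against 20.5% of all tested probes. Only CYBA differed in the same direction in both. These counts are a description: 4 of the probes are for NCF1 and share 1 transcript, and each difference rests on 2 arrays.

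**Figure D2:**
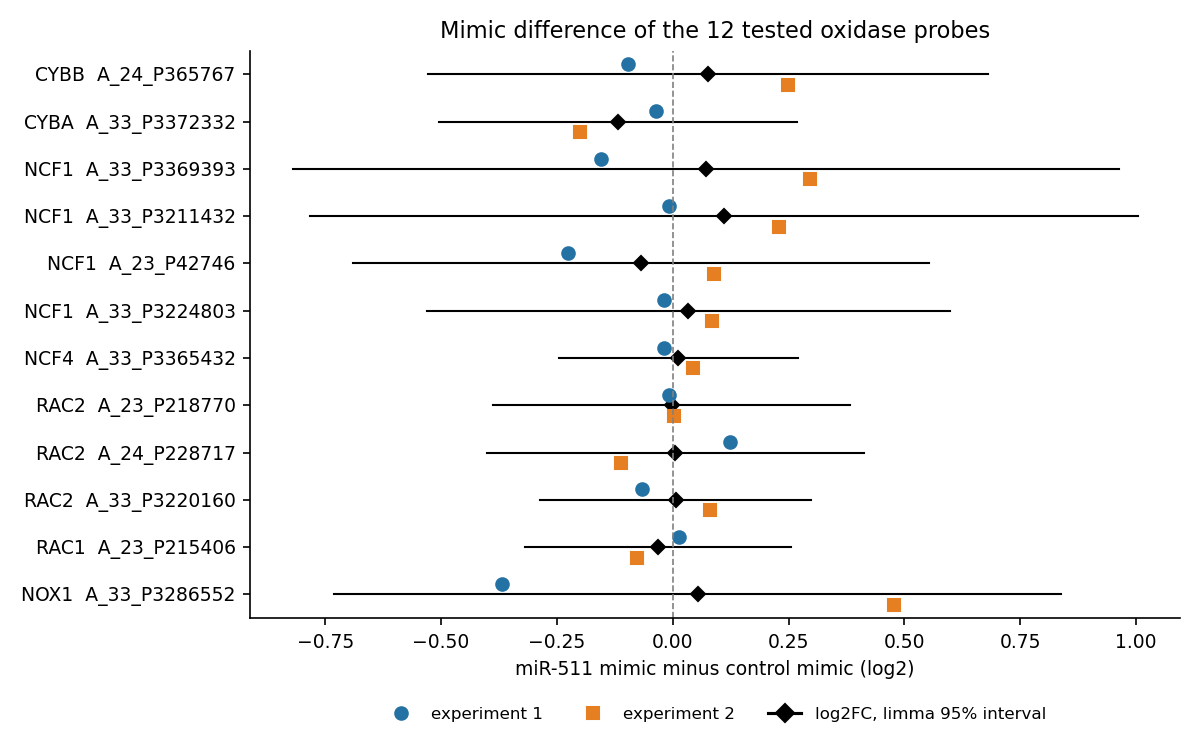
Difference between the miR-511 mimic and the control mimic (x axis, log2) for the 12 tested oxidase probes, with a blue circle for experiment 1, an orange square for experiment 2 and a black diamond for the limma log2FC with its 95% interval. Every interval crosses 0, and for CYBB, the NCF1 probes and the NOX1 probe the circle lies left of 0 or next to it and the square right of it.

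CYBB encodes gp91phox, which carries the haem groups and the flavin through which electrons pass. Its 1 probe lies at chrX:37672561-37672620 (hg19, plus strand). Exon and UTR annotation of hg19 was not used here, so only positions and transcript names are given. Its log2 signal was 9.33 with miR-511 and 9.43 for the control in experiment 1, and 9.13 and 8.88 in experiment 2. The mimic arrays lay within the range of the control arrays. The log2FC was 0.076 ± 0.22 (SE, n = 2 per group, limma) with a 95% interval from -0.53 to 0.68, which corresponds to a ratio between 0.693 and 1.60. At this number of arrays the interval spans changes of either sign.

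CYBA encodes p22phox, which gp91phox needs to be stable and which also partners NOX1 and NOX4. Its probe (chr16:88713164-88713223, minus strand) read 14.86 and 14.90 in experiment 1 and 14.57 and 14.77 in experiment 2 for the miR-511 and the control mimic. It was lower with the mimic in both experiments (differences of -0.037 and -0.20), yet the groups overlapped. The log2FC was -0.12 ± 0.14 (SE; 95% interval -0.50 to 0.27).

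NCF1 encodes p47phox, the organizer whose phosphorylation starts assembly. It was read by 4 probes along the transcript on chromosome 7, which are shown because near-identical copies exist. The probe annotation lists the pseudogene transcript NCF1C for 4 of the 4 probes and NCF1B for 2 of them beside NCF1 itself, so a part of each signal may come from those copies. Signals named NCF1 below are uncertain in that sense. Capitals mark the 23 bases that the third and the second probe below share by position (hg19, plus strand), in which they differ at 1 base. Counted from 1 at the 5′ end of the shared stretch, the substitution from A_33_P3211432 to A_23_P42746 is C22T.
A_33_P3369393, chr7:74203435-74203494: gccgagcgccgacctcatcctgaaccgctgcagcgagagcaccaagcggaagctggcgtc
A_33_P3211432, chr7:74202331-74202390: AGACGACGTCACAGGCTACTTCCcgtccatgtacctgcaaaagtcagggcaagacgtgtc
A_23_P42746, chr7:74199612-74202353, across a splice junction: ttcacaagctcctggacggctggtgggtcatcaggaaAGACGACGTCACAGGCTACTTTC
A_33_P3224803, chr7:74193443-74193502: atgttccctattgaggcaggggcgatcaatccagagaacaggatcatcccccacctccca

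The 4 NCF1 probes gave the same picture. A_33_P3369393 read 10.77 with miR-511 and 10.92 for the control in experiment 1, and 10.40 and 10.10 in experiment 2. A_33_P3211432 read 10.12 and 10.12, then 9.61 and 9.38. On both, the miR-511 values lay between the 2 control values. A_23_P42746 read 9.56 and 9.78, then 9.32 and 9.23, and A_33_P3224803 read 7.34 and 7.36, then 7.02 and 6.93, again with the miR-511 values between the control values. All 4 probes were lower with the mimic in experiment 1, with differences from -0.23 to -0.0083, and higher in experiment 2, by between 0.085 and 0.30. Their log2FC lay between -0.069 and 0.11.

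NCF4 encodes p40phox, which binds phosphatidylinositol 3-phosphate on the phagosome. Its probe (chr22:37271750-37271809, plus strand) read 13.25 and 13.27 in experiment 1 and 13.22 and 13.18 in experiment 2 for the miR-511 and the control mimic. The groups overlapped, and the log2FC was 0.012 ± 0.094 (SE; 95% interval -0.25 to 0.27).

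RAC2, the Rac GTPase of blood cells that activates the oxidase in neutrophils, had 3 probes on chromosome 22. A_23_P218770 (chr22:37621452-37621511, minus strand) read 15.39 and 15.40 in experiment 1 and 15.17 and 15.17 in experiment 2. The mimics differed by -0.0083 and 0.0037 on it, while both arrays of experiment 2 lay below both of experiment 1. A_24_P228717 (chr22:37622795-37627281, across a splice junction) read 12.66 and 12.53, then 12.33 and 12.44, higher with the mimic in experiment 1 only. A_33_P3220160 (chr22:37636848-37636907), designed on an mRNA record outside RefSeq, read 7.51 and 7.58, then 7.49 and 7.41. The log2FC of the 3 probes lay between -0.0023 and 0.0066.

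RAC1, the Rac GTPase of most tissues, serves the oxidase in monocytes. Its probe (chr7:6443013-6443072, plus strand) was spotted 10 times on each array, which gives the spread of repeat spots. The mean of the 10 spots was 13.71 ± 0.092 with miR-511 and 13.69 ± 0.044 for the control in experiment 1, and 13.55 ± 0.046 and 13.63 ± 0.074 in experiment 2 (SD over spots). The mimics differed by 0.013 in experiment 1 and by -0.077 in experiment 2. The spot SD was below the median of the 738 tested probes with 10 copies on every array (0.11 and 0.065 in experiment 1, 0.051 and 0.078 in experiment 2, in the same order). The log2FC was -0.032 ± 0.10 (SE; 95% interval -0.32 to 0.26).

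**Figure D3:**
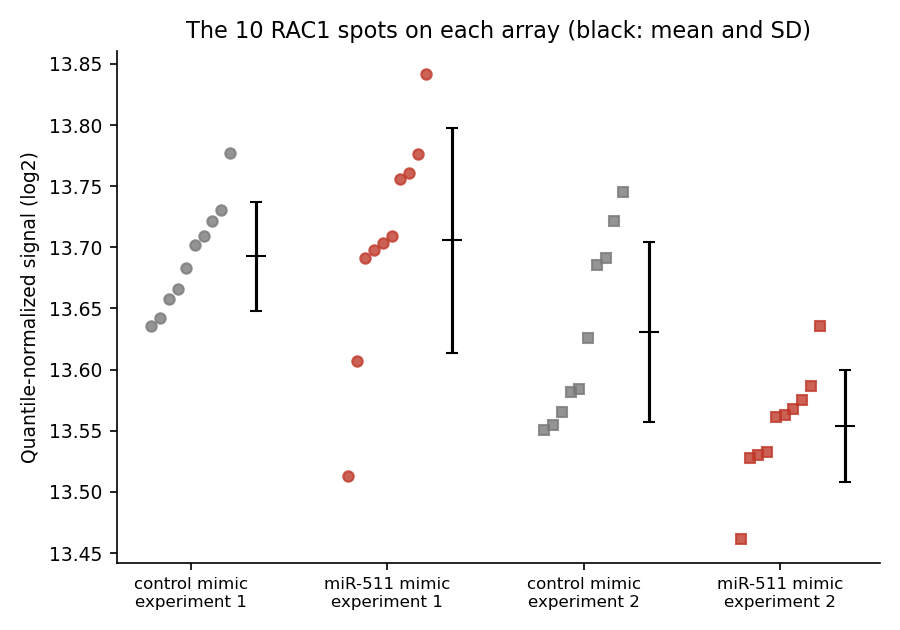
Log2 signal (y axis) of the 10 RAC1 spots on each array, in order of size from left to right within an array, with the mean and SD over spots in black beside them. The spots of all 4 arrays lie between 13.46 and 13.84, and the SD bars of the 2 mimics overlap in both experiments.

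The other catalytic homologues were dim. NOX1 is the colon epithelial enzyme, NOX4 the constitutively active kidney and vessel wall enzyme and NOX5 a calcium-regulated enzyme. The NOX1 probe A_33_P3286552 (chrX:100117672-100117731, minus strand) read 3.30 and 3.67 in experiment 1, the former not well above background, and 4.08 and 3.60 in experiment 2. The lowest signal well above background on an array lay between 2.98 and 3.44. The log2FC was 0.054 ± 0.29 (SE), with -0.37 in experiment 1 and 0.48 in experiment 2. Without the miR-511 array of experiment 1 it was 0.45, which passed the unadjusted threshold in limma (adjusted p = 1.00), and under 75th percentile scaling it was -0.021. On none of the 4 arrays did the other NOX1 probes or those of NOX4 and NOX5 rise well above background, and no difference is given for them. These were NOX1 A_23_P217280 (chrX:100098812-100098871) and A_23_P316410 (chrX:100098369-100098428), NOX4 A_33_P3224324 (chr11:89223633-89223692) and A_23_P47148 (chr11:89059826-89059885), and NOX5 A_23_P140475 (chr15:69348985-69349044). Their log2 values lay between 1.30 and 3.36, and each was at a substitute value set by the scanner software on at least 1 array.

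A larger difference lay between the experiments. This comparison was added after the values had been seen. Every tested member except the NOX1 probe was lower in experiment 2 than in experiment 1 with both mimics. These were CYBB, CYBA, NCF4, RAC1, the 4 NCF1 probes and the 3 RAC2 probes. In a limma fit of experiment 2 minus experiment 1, 6 of 12 members had an unadjusted p below 0.05, against 13.6% of all tested probes, and all 6 were lower in experiment 2: CYBB, the 4 NCF1 probes and RAC2 A_23_P218770. After adjustment 0% of all tested probes passed. Lower in experiment 2 with both mimics were 11 of 12 members, against 34.0% of all tested probes. So were 4 of 4 tested probes of other NOX family genes and 7 of 10 of the monocytic markers. The lists below of oxidase partners, NADPH and peroxide handling and CYBB control gave 9 of 22, 8 of 31 and 10 of 19. The median difference was -0.22 for the members and -0.0093 for all. The member counts are of probes, not of genes. Of the 12, 4 are for NCF1 and share a transcript and 3 are for RAC2, so they are not independent. In bulk RNA, fewer cells that make a transcript and less of it per cell cannot be told apart.

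Among the members, NCF1 gave the largest differences. Its probe A_33_P3211432 differed by -0.63 ± 0.10 on the log2 scale (SE; 95% interval -0.92 to -0.34; adjusted p = 0.226 in limma), and A_33_P3369393 by -0.60 ± 0.14 (adjusted p = 0.277). A_23_P42746 differed by -0.40 (adjusted p = 0.309) and A_33_P3224803 by -0.38 (adjusted p = 0.245). CYBB differed by -0.37 ± 0.12 (SE; 95% interval -0.70 to -0.053; adjusted p = 0.337). RAC2 A_23_P218770 differed by -0.22 (adjusted p = 0.328), while CYBA (-0.21), RAC1 (-0.11), NCF4 (-0.060), both other RAC2 probes (-0.21 and -0.098) and NOX1 (0.36) did not pass the unadjusted threshold.

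For CYBB and NCF1 the difference was larger in size on the control arrays. For CYBB it was -0.55 between the control arrays and -0.20 between the miR-511 arrays. For NCF1 A_33_P3369393 it was -0.82 and -0.37, and for A_33_P3211432 -0.75 and -0.51. Among all tested probes, the control-mimic differences of CYBB and the NCF1 probes ranked at the 88.2nd to 97.6th percentile of size, and the differences between their miR-511 arrays at the 62.2nd to 89.6th. The gaps between both differences ranked at the 36.8th to 84.6th percentile. The difference of these differences has no test, since each rests on 4 single arrays. By arithmetic it is also the change of the mimic difference from experiment 1 to experiment 2, so it is no separate result. For CYBA, RAC1, RAC2 A_24_P228717 and NOX1 the difference between experiments was larger in size on the miR-511 arrays. For NCF4 and both other RAC2 probes it was larger on the control arrays.

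The members called between experiments depended on single arrays, and their count fell more without a control array than without a miR-511 array. Without the control array of experiment 1, 2 of 12 members passed, against 14.2% of all tested probes, a share near the background. Without that of experiment 2, 3 passed, against 8.23% of all. With the mimic as a term in the fit 4 passed, all NCF1 probes, against 11.6% of all. Under 75th percentile scaling 5 passed, without RAC2 A_23_P218770 (14.1% of all), and with normexp 8 did (3174 of all 22638). NCF1 A_33_P3211432 and A_33_P3224803 passed in every setting tried. With 1 experiment on each side, what differed between them cannot be told apart, and the p-values measure only the spread between the 2 arrays of an experiment.

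**Figure D4:**
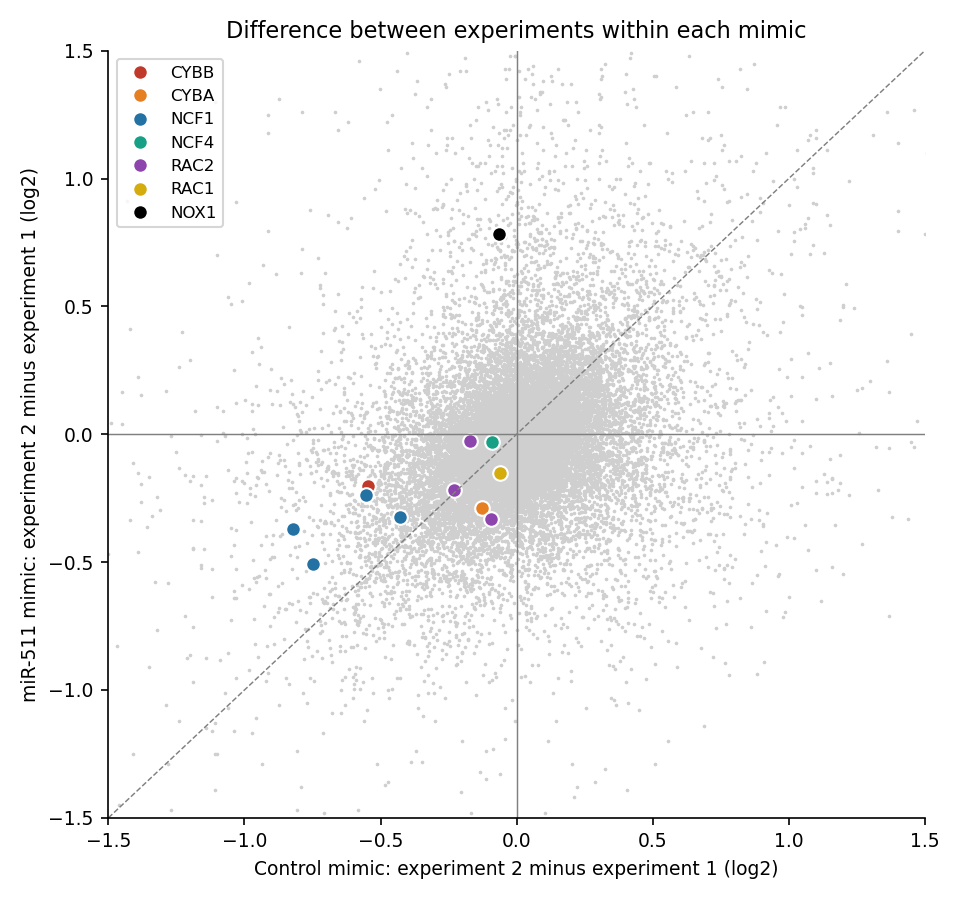
Experiment 2 minus experiment 1 (log2) between the control arrays (x axis) and between the miR-511 arrays (y axis), with all tested probes in grey, the 12 oxidase probes in colour by gene and the dashed line where both differences are equal. CYBB and the NCF1 probes lie in the lower left part at control-mimic differences from -0.82 to -0.43, above the dashed line, and the NOX1 probe lies apart at 0.78 on the y axis. 322 tested probes, no member among them, lie beyond the axes, which end at 1.5.

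The sequences before CYBB and NCF1 are shown because, of the members, both gave the largest fitted differences between experiments in size. The 250 bases before the transcript start of each gene are given from RefSeq on GRCh38.p14. The table holds such a window for 6 of the 9 members. Capitals mark matches to GAGGAA or its reverse complement TTCCTC, the core read by PU.1 and other ETS factors, and to CCAAT or its reverse complement ATTGG.
CYBB, chrX:37779809-37780058, plus strand: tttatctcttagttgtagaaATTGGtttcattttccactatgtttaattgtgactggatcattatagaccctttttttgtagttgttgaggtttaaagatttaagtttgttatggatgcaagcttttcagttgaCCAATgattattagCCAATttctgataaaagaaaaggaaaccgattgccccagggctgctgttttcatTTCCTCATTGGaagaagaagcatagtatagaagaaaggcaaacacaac
NCF1, chr7:74773761-74774010, plus strand: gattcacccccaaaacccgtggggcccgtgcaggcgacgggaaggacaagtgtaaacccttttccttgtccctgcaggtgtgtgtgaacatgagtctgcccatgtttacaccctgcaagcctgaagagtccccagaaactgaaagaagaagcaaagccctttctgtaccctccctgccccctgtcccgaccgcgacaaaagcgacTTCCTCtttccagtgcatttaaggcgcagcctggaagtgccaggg

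Both windows hold TTCCTC once, from base -48 in CYBB and from base -45 in NCF1, counted back from the start. GAGGAA occurs on either strand in 23.6% of all 35116 windows. The CYBB window holds CCAAT 4 times on either strand and that of NCF1 0 times, and 32.0% of all windows hold it. No overlap occurs between the motif matches, though TTCCTC and ATTGG stand next to each other in CYBB. The windows of CYBA and NOX1 hold neither motif. CYBA was lower in experiment 2 with both mimics (control -0.13, miR-511 -0.29). The NOX5 window holds GAGGAA once, and of the NOX4 windows 1 holds GAGGAA once and another holds CCAAT 2 times. NOX4 and NOX5 were above background on no array. These matches are letters in a window, and binding was not measured. A link between the motifs and the signals was not tested.

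Of a list of genes linked to the control of CYBB, 0 of 19 tested probes for 13 genes passed the mimic test. SPI1, which encodes PU.1, read 13.04 and 12.99 in experiment 1 and 12.92 and 12.75 in experiment 2 (log2FC 0.11 ± 0.13). Between experiments it differed by -0.18 (adjusted p = 0.471). IRF8, its partner, differed by -0.039 between experiments. Of the 19 probes 1 passed between experiments (5.26%, below the 13.6% of all tested probes). It was 1 of 3 probes of CUX1, which encodes a repressor of CYBB, at -0.30 (adjusted p = 0.284), and the others differed by -0.045 and -0.069.

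The proteins that work with the oxidase were counted from a list of 20 genes. None of its 22 tested probes passed the mimic test. Between experiments 4 of 22 passed (18.2%, against 13.6% of all tested probes), and 12 of 22 were lower in experiment 2 (54.5%, against 52.4% of all), so the list was near the background. The 4 that passed, all lower in experiment 2, were 2 probes of PRKCB (-0.38 and -0.33), PRKCZ (-0.42) and PRKCA (-0.30). PRKCD, a protein kinase C like these, differed by 0.047 and did not pass. S100A8, a chain of the calprotectin dimer that feeds arachidonic acid to the oxidase, read 11.58 with the miR-511 mimic in experiment 1 against 13.40 to 13.56 on the other 3 arrays. Its log2FC was -1.05 ± 0.64 (SE; adjusted p = 1.00), and without the miR-511 array of experiment 2 it was -1.96, past the unadjusted threshold (adjusted p = 0.125). S100A9, its partner, was 0.14 higher and 0.26 higher with the mimic (log2FC 0.20 ± 0.095).

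The rest of the NOX family and the handling of NADPH and peroxide gave 0 calls between mimics too. Of 9 probes for other NOX family genes 4 were tested. NOXA1, an activator of NOX1, was lower with the mimic by 0.15 and 0.63. RAC3, POLDIP2 and DUOXA1 were the others. All 4 were lower in experiment 2 (median -0.28, against -0.0093 for all tested probes), and none passed the threshold between experiments. Of 33 probes for NADPH supply and peroxide handling 31 were tested. HMOX1, the haem-degrading enzyme, was higher by 0.19 in experiment 1 and lower by 0.68 in experiment 2. Between experiments 6 of the 31 passed (19.4%, against 13.6% of all tested probes), 1 of them lower in experiment 2 (CAT, catalase, -0.23) and 5 higher, with EPX (0.95), ME1 (0.42) and GCLC (0.21) among them. The median difference of this list was 0.081.

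**Figure D5:**
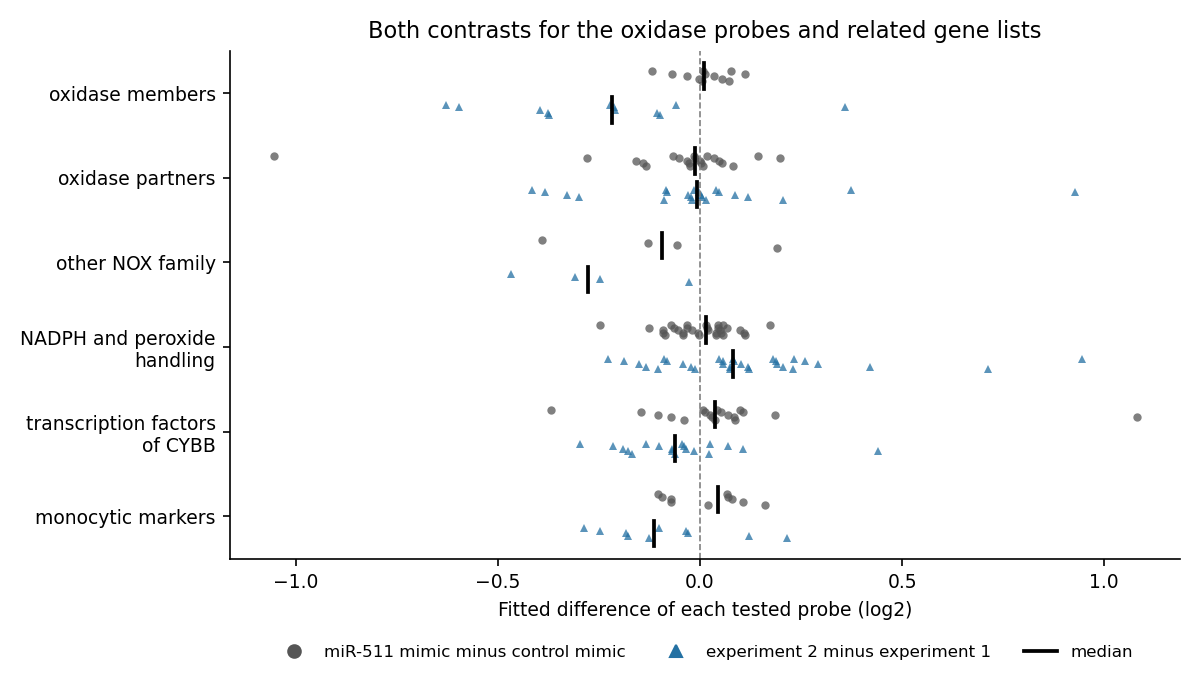
Fitted difference (x axis, log2) of each tested probe in the oxidase members and 5 related lists (y axis), with grey circles for the miR-511 mimic minus the control mimic, blue triangles for experiment 2 minus experiment 1 and a black bar at the median. The members' median stood at 0.0092 between mimics and at -0.22 between experiments, and the medians of the other lists between experiments ran from -0.28 to 0.081.

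Of the 10 tested monocytic marker probes 8 were lower in experiment 2 (80%, against 52.4% of all tested probes), and 2 passed the threshold (20%, against 13.6% of all): CD68 (-0.29, adjusted p = 0.316), a lysosomal protein of macrophages, and CSF1R (-0.25, adjusted p = 0.336), the receptor for macrophage colony-stimulating factor. CD14 was higher by 0.21 and MPO by 0.12, and neither passed. Their part in the difference of CYBB and NCF1 was not tested.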

How the data were processed

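RNA of THP1 cells was labelled with Cy3 and hybridized to Agilent 4x44K v2 arrays, 2 per mimic. The deposited scanner files hold processed signal intensity per spot, which the authors had extracted with Agilent Feature Extraction 10.5.1.1 per the submitters' processing notes, with coordinates on hg19. The authors also deposited a log2 table, used as an alternative. Here the 43118 non-control spots were taken as log2 intensity. Spots marked as outliers were dropped (232 to 301 per array, 0 of them a member's), the rest were quantile-normalized and the copies of a probe were averaged. Probes well above background on both arrays of a mimic entered limma 3.58.1 in R 4.3.3. A probe with 10 copies counted as above background when more than 50% of its spots were. Tests were two-sided, with an unadjusted threshold of 0.05 and Benjamini-Hochberg adjustment over all tested probes. An exact permutation test of 2 against 2 arrays cannot give a p below 0.333. Intervals are at 95%.

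Every member probe is accounted for. Genes of the fixed lists were named when past the threshold or well above background. Members and lists were chosen with earlier results of these data known, and the comparison of experiments was added after its values were seen. The labels number the experiments, so arrays of 1 number were treated as paired in an alternative with a replicate block. The deviations of arrays from their group means correlated at 0.27 across probes between mimics. Other alternatives were 75th percentile scaling, normexp (offset 50), no filter or a stricter one, outlier spots kept, an intensity trend and each array left out. The method was tested on simulated data. Of the 17 probes, 16 had an accession that matched a RefSeq gene, each with the symbol in the files. Most genes of the lists are counted but not reported here by name.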

Additional observations from a re-analysis of the deposited data

How the results depend on the processing

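With 2 arrays per mimic the limits are wide, and with the replicate block, in which arrays of an experiment are paired, 0 of 12 members passed (3.95% of all tested probes did), with CYBB at 0.076 ± 0.13 (SE). The signs of the small log2FC were not stable. Under normexp they reversed for NCF4 (-0.098), NOX1 A_33_P3286552 (-0.013), RAC2 A_23_P218770 (0.051), RAC2 A_24_P228717 (-0.017) and RAC2 A_33_P3220160 (-0.043), and under 75th percentile scaling for NOX1 (-0.021). The cause was not tested. Leaving out each array in turn, log2FC ran from -0.26 to 0.027 for CYBA, from -0.20 to 0.35 for CYBB, from -0.35 to 0.21 for NCF1 A_23_P42746, from -0.26 to 0.48 for A_33_P3211432, from -0.18 to 0.25 for A_33_P3224803, from -0.34 to 0.48 for A_33_P3369393, from -0.034 to 0.057 for NCF4, from -0.34 to 0.45 for NOX1, from -0.11 to 0.044 for RAC1, from -0.12 to 0.11 for RAC2 A_23_P218770, from -0.16 to 0.17 for A_24_P228717 and from -0.080 to 0.093 for A_33_P3220160.

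Counts past the unadjusted threshold moved as follows. Without the filter 1 member passed between mimics, NOX1 A_23_P316410, above background on 0 arrays and partly at the scanner's substitute values. Leaving out 1 array gave 0 to 1 members (NOX1 A_33_P3286552 without the miR-511 array of experiment 1), 0 to 1 of the other NOX family (NOXA1), 0 to 2 partners (S100A8 and C17orf62 without the miR-511 array of experiment 2) and 0 to 1 of the NADPH and peroxide list (HMOX1 without the control array of experiment 1). Normexp gave 1 partner (S100A9). Between experiments the settings that kept all 4 arrays gave 4 to 8 members, against 10.1% to 14.6% of all tested probes. The count was out of 12 except with the stricter filter (6 of 11) and without the filter (8 of 17). Without the filter NOX1 A_23_P217280 (0.90) and NOX4 A_33_P3224324 (0.72) were among them, higher in experiment 2 and above background on 0 arrays.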
